A study of Canis lupus familiaris with 4 samples.

Results

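Cartilage and bone genes were followed in canine mammary tumours of grade 3, labelled as the most malignant, against tumours of grade 1, labelled as less malignant. The genes were chosen by name: COL2A1, ACAN and COL9A2 of the cartilage matrix, the regulator SOX9 and the bone phosphatase ALPL. All 5 were found through their dog RefSeq mRNA accessions, which belonged to 11 of the 43603 probes on the array and to 15 spots per array. COL2A1 had 3 probes, ACAN 2, COL9A2 and SOX9 1 each, and ALPL 4. RNA of both grades had been hybridised together on 4 two-colour arrays of 1 slide, with grade 3 in Cy5 and grade 1 in Cy3 on 2 arrays and the dyes exchanged on the other 2. The arrays were described as biological replicates 1 and 2 in each dye orientation, and nothing said which of them shared an RNA extract, so the p-values rest on array-to-array spread alone, part or all of which may be technical. The titles named tumours, but the protocols described cancer cells kept with sorted monocytes for at least 72 h and then separated by flow sorting, which leaves the kind of sample unsettled. No age, breed or number of animals was stated in the sources used here. In bulk RNA, fewer cells of a type and less RNA per cell cannot be told apart.

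Cartilage is built on fibrils of type II collagen, the product of COL2A1, which trap the large proteoglycan aggrecan, the product of ACAN. Type IX collagen, one of whose chains is encoded by COL9A2, decorates the surface of these fibrils. SOX9 is the transcription factor that commits cells to the cartilage lineage and activates the genes of type II collagen, type IX collagen and aggrecan, and it is also present in many epithelia. ALPL encodes the tissue-nonspecific alkaline phosphatase, which removes the mineralisation inhibitor pyrophosphate where bone is laid down and is also made in liver, kidney and neutrophils. Canine mammary tumours of the complex and mixed types are known for spindle-shaped myoepithelial growth and for islands of cartilage or bone.

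The members split in direction. COL2A1 was higher in grade 3 by all 3 of its probes, ACAN was higher by 1 of 2 probes, ALPL was lower by all 4 probes, and SOX9 and COL9A2 were lower by small amounts. In limma's moderated test with Benjamini-Hochberg adjustment over 35411 tested probes and a threshold of 0.05, 10 of the 11 member probes were called, 4 higher and 6 lower. The test called 61.6% of all tested probes, 31.1% of them higher and 30.5% lower, so that a call by itself sets no member apart. A single sign on all 4 arrays was seen for 9 of the 11 member probes and for 57.0% of tested probes, and 51.8% of tested probes were also called. By gene, 2 members were higher and 3 lower, where 70.2% of 925 named genes were called. Changes of at least 2-fold were less common: 1.43% of tested probes were called at least 2-fold higher, among them 4 member probes, and 1.75% were called at least 2-fold lower, among them 2 member probes. Each of the 11 member probes stood well above background in both grades on every array, and none of their spots carried an outlier mark. An exact sign-flip test over 4 arrays cannot give a p below 0.125, so the tests reported are those of the fit across all probes.

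The probes of a gene are numbered here by their mean intensity, and the first stands for the gene. For COL2A1 probes 1 to 3 were A_11_P0000020143, A_11_P050066 and A_11_P053401. For ACAN probes 1 and 2 were A_11_P0000024093 and A_11_P054811. COL9A2 was measured by A_11_P0000026915 and SOX9 by A_11_P0000019704. For ALPL probes 1 to 4 were A_11_P052996, A_11_P0000039339, A_11_P0000023408 and A_11_P209833. Where within its transcript each probe lies was not analysed here, and neither was whether a collagen probe could bind the transcript of another collagen.

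**Figure D1:**
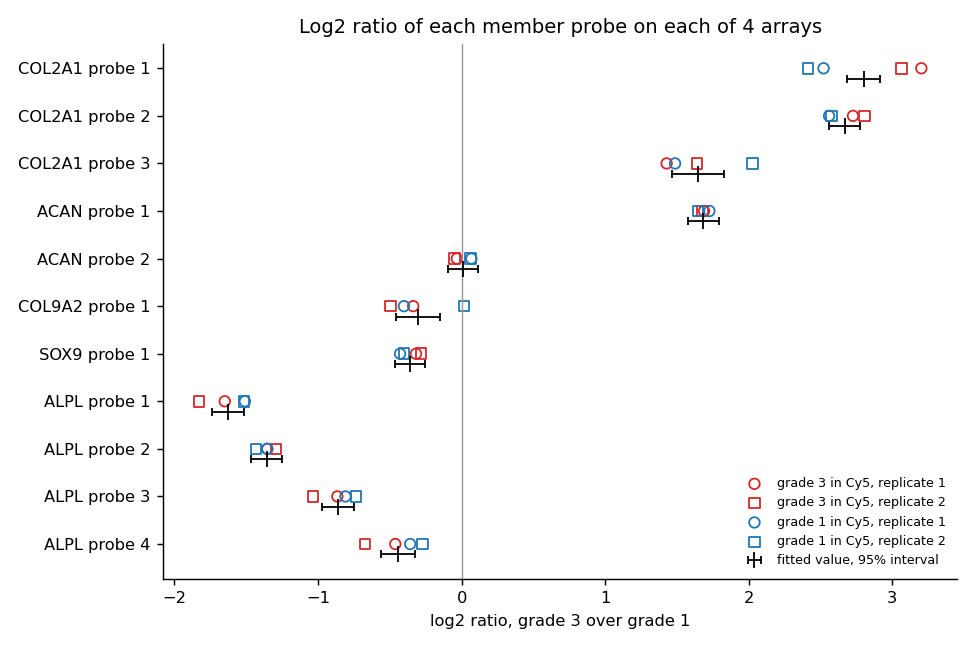
Log2 ratio of grade 3 over grade 1 (horizontal axis) of the 11 member probes on each of the 4 arrays, with circles for replicate 1 and squares for replicate 2, red where grade 3 was in Cy5 and blue where grade 1 was in Cy5. Black bars are the fitted value with its 95% interval; the 3 COL2A1 probes and ACAN probe 1 lie above 0 on every array, and SOX9 and the 4 ALPL probes lie below 0 on every array at this normalization, although SOX9 turned to 0.33 with spike-in scaling.

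COL2A1 had the largest rise of the 5 genes. For probe 1 the scanner's median signal with grade 3 in Cy5 was 119616 intensity units for grade 3 and 5316.5 for grade 1 in replicate 1. In replicate 2 of that orientation the signals were 108799 and 6508.5. With grade 1 in Cy5 they were 94391.5 for grade 3 and 17201 for grade 1 in replicate 1, and 94903.5 and 18248 in replicate 2. Grade 3 was thus the brighter channel on all 4 arrays, in whichever dye it was labelled.

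After background correction and loess normalization, the log2 ratios of COL2A1 probe 1 were 3.20 and 3.06 with grade 3 in Cy5 and 2.52 and 2.41 with grade 1 in Cy5. Both orientations gave ratios far above 0, and those with grade 3 in Cy5 were the larger ones. The fitted change was 2.80 ± 0.05 (moderated SE, n = 4 arrays) on the log2 scale, a 6.96-fold higher signal (limma adjusted p = 3.01e-10), and the dye term of that probe was 0.33. Among all tested probes it ranked 19th from the highest. Its normalized log2 intensity was 16.39 ± 0.10 in grade 3 (SD, n = 4) and 13.59 ± 0.49 in grade 1. The grade 1 values of 13.09, 13.26, 13.98 and 14.03 fell into 2 pairs by dye, while those of grade 3 lay between 16.29 and 16.51.

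COL2A1 probe 2 was printed 5 times on each array and so gives the error of a single spot. Its 5 log2 ratios lay between 2.65 and 2.80 and between 2.78 and 2.85 on the arrays with grade 3 in Cy5. With grade 1 in Cy5 they lay between 2.50 and 2.61 and between 2.50 and 2.65. The SD between spots of one array was 0.03 to 0.06, smaller than the differences between the 2 dye orientations. The array means were 2.73, 2.81, 2.56 and 2.58, and the fitted change was 2.67 ± 0.05 (n = 4, limma adjusted p = 3.01e-10), or 6.35-fold. Probes 1 and 2 differed by 0.13 ± 0.29 (SD over 4 arrays) in log2 ratio, with both signs among the arrays.

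The third COL2A1 probe gave a smaller change. Its raw signals were 615.5 to 914.5 units in grade 3 and 134 to 181.5 in grade 1. The log2 ratios were 1.43 and 1.64 with grade 3 in Cy5 and 1.49 and 2.02 with grade 1 in Cy5, with a fitted change of 1.64 ± 0.08 (n = 4, limma adjusted p = 1.40e-07), or 3.13-fold. On every array this ratio was below that of probe 2, by 0.55 to 1.30. With the normexp offset, a constant added to both channels, lowered from 50 to 16 units, the change of probe 3 was 1.84, beside 2.81 and 2.69 for probes 1 and 2. With the scanner software's processed signals, which differ in background correction and normalization as well, the 3 values were 2.04, 2.84 and 2.74 in the same order. With local backgrounds used as measured it was 1.04 and the call was lost (adjusted p = 0.0565). The mean of the 3 probes was 5.17-fold higher in grade 3.

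**Figure D2:**
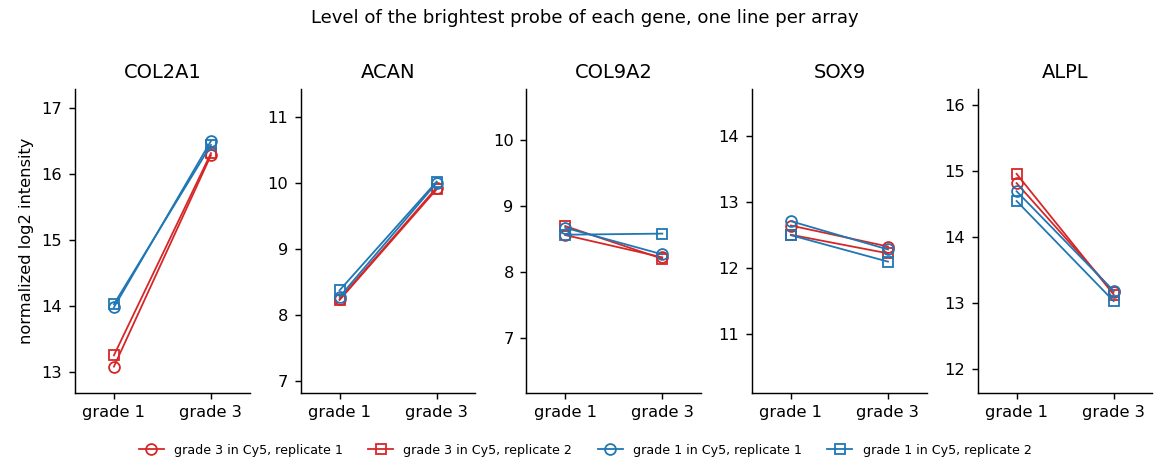
Normalized log2 intensity (vertical axis, the same span in each panel) of the first probe of each gene in grade 1 and grade 3, with a line for each of the 4 arrays in the colours and symbols of the dye orientation and replicate. COL2A1 runs from a mean of 13.59 to 16.39 and ALPL from 14.75 to 13.12, while the 4 SOX9 lines slope slightly down and 1 of the 4 COL9A2 lines is flat; intensities are not compared between probes.

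ACAN, the aggrecan gene, was higher in grade 3 by 1 of its 2 probes. Probe 1 had signals of 1313, 1070.5, 1105.5 and 1230 units in grade 3 against 191, 201.5, 273 and 302 in grade 1. Its log2 ratios of 1.69, 1.68, 1.73 and 1.65 were nearly the same on all arrays and gave a fitted change of 1.68 ± 0.05 (n = 4, limma adjusted p = 3.61e-09), or 3.21-fold higher in grade 3. Its normalized levels were 9.97 ± 0.06 (SD, n = 4) in grade 3 and 8.28 ± 0.07 in grade 1.

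Probe 2 of ACAN showed no such difference after normalization. Its raw signals were 659.5, 458.5, 503 and 504 units in grade 3 against 347.5, 309, 416.5 and 393 in grade 1. Before normalization grade 3 was thus the brighter channel on all 4 arrays. Its log2 ratios were -0.03 and -0.05 with grade 3 in Cy5 and 0.07 and 0.06 with grade 1 in Cy5, so the sign followed the dye. The fitted change was 0.01 ± 0.05 (n = 4, limma adjusted p = 0.843), with a 95% interval of -0.09 to 0.12, which leaves out the change seen with probe 1. The probes differed by 1.67 ± 0.07 (SD over 4 arrays) in log2 ratio. The level of probe 2 was 8.84 ± 0.11 (SD, n = 4) in grade 3 and 8.83 ± 0.12 in grade 1. The mean of both probes was 1.80-fold higher. Probe 2 was called higher with median centring (log2 0.15, adjusted p = 0.0219) and with spike-in scaling (0.60). Of 347 named genes with several tested probes only 6, ACAN among them, had probes at least as far apart, and the median range between the probes of a gene was 0.14. COL2A1 and ALPL also had wide ranges, 1.15 and 1.18. Ranges at least as wide were found in 11 and 10 of these genes, the member itself included.

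COL9A2, encoding a chain of the fibril-associated type IX collagen, did not follow COL2A1. Its signals lay between 261 and 437 units in the 8 channels. With grade 3 in Cy5 they were 380 and 312 for grade 3 against 261 and 294 for grade 1. With grade 1 in Cy5 they were 319 and 437 for grade 3 against 374 and 348. Grade 3 was thus the brighter channel on 3 arrays before normalization, and the direction rests on the normalization. The log2 ratios were -0.34 and -0.50 with grade 3 in Cy5 and -0.40 and 0.02 with grade 1 in Cy5, so that 3 arrays were below 0 and replicate 2 with grade 1 in Cy5 was not. The fitted change was -0.30 ± 0.07 (n = 4, limma adjusted p = 0.00351), or 1.23-fold lower in grade 3. The levels overlapped, with 8.20 to 8.58 in grade 3 and 8.56 to 8.70 in grade 1. The call was lost with local backgrounds as measured (log2 -0.14, adjusted p = 0.224), and the change turned to 0.25 with spike-in scaling.

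SOX9, the regulator of these matrix genes, was slightly lower in grade 3. Its signals were far above background, between 4050 and 7405 units. The raw signals followed the dye, with grade 3 brighter where it was in Cy5 and dimmer where it was in Cy3, and the direction rests on the normalization. The normalized log2 ratios were -0.32 and -0.28 with grade 3 in Cy5 and -0.43 and -0.40 with grade 1 in Cy5. The fitted change was -0.36 ± 0.05 (n = 4, limma adjusted p = 0.000101), or 1.28-fold lower. Its levels were 12.23 ± 0.10 (SD, n = 4) in grade 3 and 12.59 ± 0.11 in grade 1. The call was lost with median centring (log2 -0.11, adjusted p = 0.0718), and spike-in scaling gave 0.33.

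ALPL, the phosphatase of mineralising bone, was lower in grade 3 by every probe. For probe 1 the signals were 13546 and 11490.5 units for grade 3 in Cy5 against 18391.5 and 21566.5 for grade 1, and 9717.5 and 9419 for grade 3 in Cy3 against 26126 and 24616. Grade 3 was the dimmer channel on all 4 arrays in either dye. The log2 ratios were -1.65, -1.83, -1.51 and -1.52, and the fitted change was -1.63 ± 0.05 (n = 4, limma adjusted p = 7.34e-09), or 3.09-fold lower. Its levels were 13.12 ± 0.07 (SD, n = 4) in grade 3 and 14.75 ± 0.18 in grade 1. The change ranked 133rd from the lowest of all tested probes.

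The other 3 ALPL probes gave smaller changes of the same sign. Probe 2, with signals of 605.5 to 1515 units, had log2 ratios of -1.35, -1.29, -1.35 and -1.43 and a fitted change of -1.36 ± 0.05 (adjusted p = 1.51e-08). Probe 3, at 152 to 281 units, had -0.87, -1.03, -0.81 and -0.74 and a fitted change of -0.86 ± 0.05 (adjusted p = 4.68e-07). Probe 4, at 73.5 to 113.5 units on a background of 28.5 to 42.5, had -0.46, -0.67, -0.36 and -0.27 and a fitted change of -0.44 ± 0.05 (adjusted p = 5.86e-05). With the offset alone lowered from 50 to 16 the 4 probes gave -1.63, -1.41, -1.02 and -0.64. With the processed signals, which differ in background correction and normalization as well, they gave -1.63, -1.47, -1.20 and -1.01. The calls of probes 3 and 4 were lost with local backgrounds as measured (adjusted p = 0.0821 and 0.18), and that of probe 4 with spike-in scaling (adjusted p = 0.305). The mean of the 4 probes was 2.10-fold lower.

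**Figure D3:**
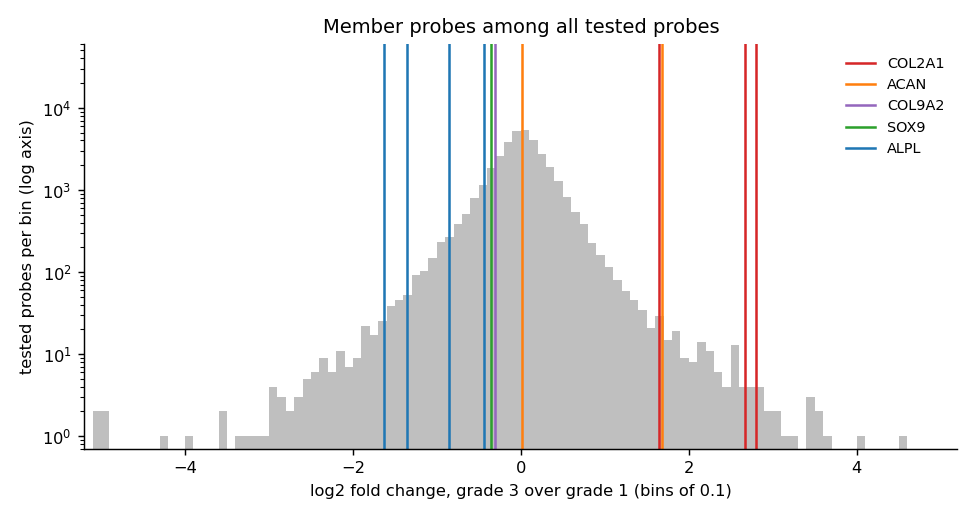
Number of tested probes (vertical log axis) by log2 fold change of grade 3 over grade 1 in bins of 0.1, with a vertical line for each of the 11 member probes coloured by gene. COL2A1 probes 1 and 2 stand at 2.80 and 2.67 in the upper tail and ALPL probe 1 at -1.63 in the lower tail, whereas COL9A2 at -0.30 and SOX9 at -0.36 lie near the bulk and turned above 0 with spike-in scaling.

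Differences between members on one array are free of a constant scaling of that array, but not of the loess normalization, which depends on intensity. They were large. The log2 ratio of COL2A1 exceeded that of ALPL by 4.42 ± 0.52 (SD over 4 arrays), with the smallest difference at 3.93. It exceeded that of SOX9 by 3.16 ± 0.33 and that of COL9A2 by 2.40 to 3.56. ACAN probe 1 exceeded SOX9 by 2.04 ± 0.08 and ALPL by 3.31 ± 0.15. COL9A2 and SOX9 differed by 0.05 ± 0.26, with both signs among the arrays. By their first probes COL2A1 and ACAN therefore stood above SOX9, COL9A2 and ALPL on each of the 4 arrays, while COL2A1 itself exceeded ACAN by 0.77 to 1.51. ACAN probe 2, with a fitted change of 0.01, is not part of these differences.

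Only a minority of the wider pathway was measured. A gene was measured if a named probe was well above background on all 4 arrays in 1 grade or both. Genes without a named probe and genes too dim to test were not told apart. Of 32 listed cartilage matrix genes 7 were measured, 3 of them higher and 4 lower. Their median was -0.30 on the log2 scale. The count was 6 higher and 0 lower with spike-in scaling, 3 and 1 with local backgrounds as measured, and 3 and 2 with median centring. Among the 925 named genes 24.1% were called higher and 46.1% lower, with a median of -0.09. Beside the members, OPTC, encoding the small proteoglycan opticin, was 5.65-fold higher by its first probe (log2 2.50 ± 0.07), and its second probe had 0.15 ± 0.05. The small leucine-rich proteoglycan genes BGN and DCN had -0.33 ± 0.08 and -0.34 ± 0.05, and CHI3L1, encoding a secreted glycoprotein of chondrocytes and macrophages, had -0.46 ± 0.07. All of these were called, but with spike-in scaling BGN, DCN and CHI3L1 turned to 0.34, 0.32 and 0.14. BGN and CHI3L1 were not called with local backgrounds as measured (adjusted p = 0.0758 and 0.117), BGN and DCN not with median centring (0.282 and 0.0574), and CHI3L1 not without a dye term (0.0559). The second DCN probe had -0.22 ± 0.05 at the main normalization. Its ratios were -0.43 and -0.53 with grade 3 in Cy5 and 0.06 and 0.02 with grade 1 in Cy5. The genes of the cartilage matrix proteins COMP, HAPLN1 and MATN1, of type X collagen and of the other type IX chains were listed but not measured.

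Among 36 listed regulators and signals of cartilage formation 5 were measured, 3 higher and 2 lower, which became 4 and 0 with spike-in scaling, 3 and 1 with median centring and 1 and 1 with local backgrounds as measured. BMP7, a bone morphogenetic protein that drives cartilage and bone formation, was 3.23-fold higher by its first probe (log2 1.69 ± 0.05, n = 4, limma adjusted p = 4.48e-09). Its other probes gave 1.49 ± 0.05 and 1.70 ± 0.05. The genes of type I BMP receptors, BMPR1A and BMPR1B, had 0.42 ± 0.05 and 0.16 ± 0.05. The BMPR1A call was lost with local backgrounds as measured (adjusted p = 0.0962). BMPR1B was below 0 on both arrays with grade 3 in Cy5 and above 0 on the others. It was not called with local backgrounds as measured (adjusted p = 0.205), with the processed signals or the deposited value table (0.0551 each), without a dye term (0.237), without the first replicate of the grade 3 Cy5 arrays (0.0566) or without the second of the grade 1 Cy5 arrays (0.208). PTH1R, the receptor of parathyroid hormone and its related protein, was 1.42-fold lower (-0.51 ± 0.05), a call lost with local backgrounds as measured (adjusted p = 0.116) and with spike-in scaling (-0.02).

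The measured bone genes were all lower. Of 28 listed genes of bone matrix and mineralisation 5 were measured and all 5 were called lower, their median being -0.54 on the log2 scale, although with spike-in scaling 2 of the 5 were lower and none higher. Beside ALPL they were COL1A1 and COL1A2, which encode the chains of type I collagen, MSX2, a homeobox gene of the bone-forming lineage, and PTH1R. COL1A1 was 2.24-fold lower (log2 -1.16 ± 0.06), with ratios of -1.47, -1.80, -0.65 and -0.73, and by the mean of its 4 probes it had -0.71. COL1A2 had -0.54 ± 0.06, but its ratios were -0.06 and 0.32 with grade 3 in Cy5 and -1.28 and -1.17 with grade 1 in Cy5. It was not called without a dye term (adjusted p = 0.149), and spike-in scaling turned it to 0.11. Its 6 probes gave -0.64 to -0.54. MSX2 had -0.52 ± 0.05 and 0.12 with spike-in scaling. The osteoblast genes SP7, IBSP, BGLAP and SPP1 were listed but not measured.

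Genes of osteoclasts, the cells that resorb bone, and of matrix breakdown were lower as well. Of 15 listed osteoclast genes 4 were measured and 4 were called lower, and with spike-in scaling 1 was lower and 1, CTSK, was higher. MMP9, a gelatinase gene, was 1.89-fold lower by its first probe (log2 -0.92 ± 0.05). Its other probes gave -0.80, -0.16 and -0.11, the last not called (limma adjusted p = 0.0829). CALCR, the calcitonin receptor gene, was 1.54-fold lower (-0.62 ± 0.05, adjusted p = 0.0569 with local backgrounds as measured). CTSK, encoding the collagen-cleaving cathepsin K, had -0.48 ± 0.06, was not called without a dye term (adjusted p = 0.0561) and turned to 0.21 with spike-in scaling. ITGB3, an integrin gene, had -0.16 ± 0.06 and 0.12 with that scaling. ITGB3 was not called without either of the grade 3 Cy5 arrays (adjusted p = 0.0956 and 0.0524), without the second grade 1 Cy5 array (0.384), with local backgrounds as measured (0.307) or without a dye term (0.113). Of 14 listed proteases and inhibitors 4 were measured and all were called lower. MMP3, which cleaves aggrecan and other matrix proteins, was 5.51-fold lower (-2.46 ± 0.06), a call lost with local backgrounds as measured (-1.50, adjusted p = 0.0711), and the inhibitor gene TIMP1 was 2.01-fold lower (limma adjusted p = 3.46e-07). TIMP2 had -0.19 ± 0.06, turned to 0.06 with median centring and 0.51 with spike-in scaling, and was not called without the second grade 3 Cy5 array (adjusted p = 0.0725), the first grade 1 Cy5 array (0.15) or a dye term (0.162), nor with local backgrounds as measured (0.129).

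No other collagen gene measured here was higher at this normalization. Of 24 listed collagens outside cartilage 6 were measured and 6 were called lower, with a median of -0.36, although with spike-in scaling 4 were higher and only COL1A1 was lower. Beside the type I chains these were COL6A3 of the cell-surface microfibrils (-0.36 ± 0.06), COL7A1 of the anchoring fibrils (-0.29 ± 0.05), and COL4A5 and COL4A4 of basement membranes (-0.35 ± 0.05 and -0.14 ± 0.05). With spike-in scaling they had 0.23, 0.40, 0.22 and 0.25 in that order. At the main normalization the other COL7A1 probes gave -0.84 and -0.09, the latter not called (limma adjusted p = 0.201). COL4A4, COL4A5 and COL6A3 were not called with local backgrounds as measured (adjusted p = 0.631, 0.0789 and 0.0594), nor COL7A1 with median centring (0.499). COL4A4 was not called without a dye term (0.105), without the filter on dim probes (0.0535) or without any one array other than the first grade 3 Cy5 array (0.192, 0.217 and 0.0797). COL2A1 was higher under both scalings, at 3.00 with median centring and 3.44 with spike-in scaling.

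**Figure D4:**
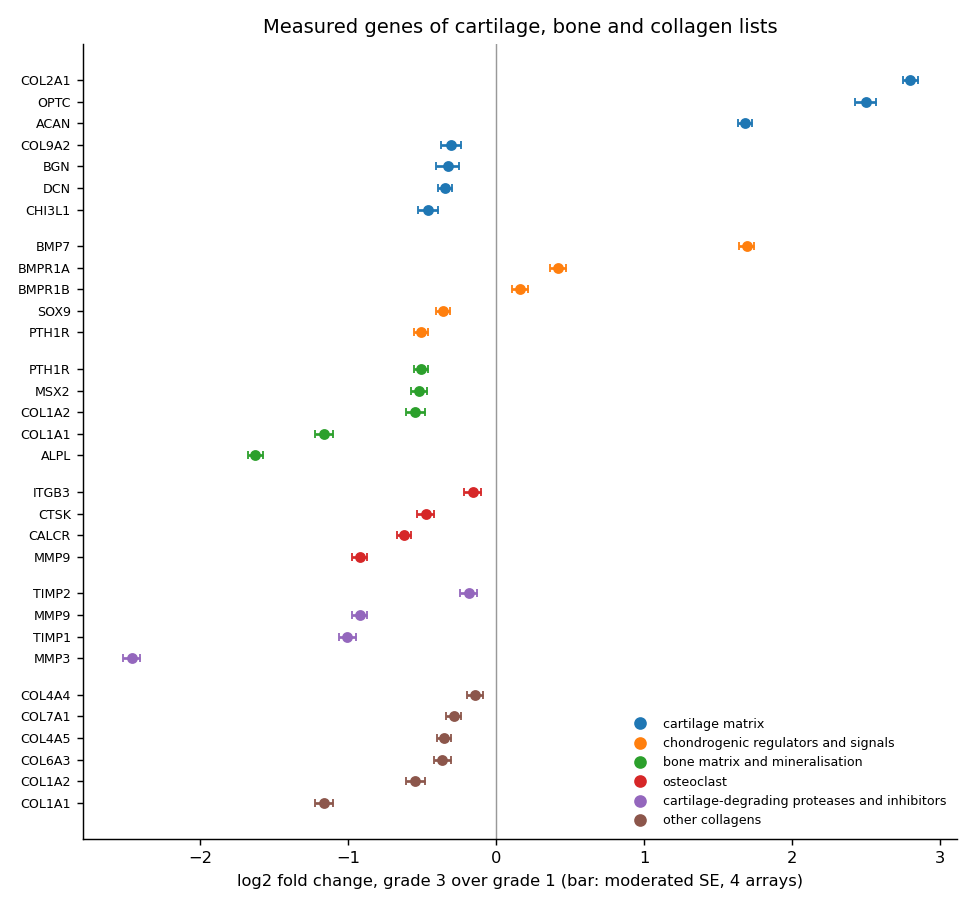
Log2 fold change of grade 3 over grade 1 (horizontal axis, with bars for the moderated SE over 4 arrays) of every measured gene in 6 lists on cartilage, bone and collagen, coloured by list, with the first probe standing for its gene; a gene on 2 lists is drawn under both. COL2A1, OPTC, ACAN and BMP7 stand above 1 and the bone, osteoclast, protease and other collagen genes below 0, of which COL1A2, MSX2, CTSK, ITGB3, TIMP2, COL4A4, COL7A1, COL4A5 and COL6A3 turned above 0 with spike-in scaling.

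Among named genes outside the members, a few had ratios close to those of a member on all 4 arrays, measured by the root mean square difference of the 4 log2 ratios among 919 genes. Nearest to COL2A1 were the milk protein gene CSN2 at a difference of 0.27, OPTC at 0.41 and the milk protein gene LALBA at 0.43, with fold changes of 2.81, 2.50 and 2.50 on the log2 scale. Like COL2A1 probe 1, CSN2 had larger ratios with grade 3 in Cy5 (3.59 and 3.21) than with grade 1 in Cy5 (2.27 and 2.19). Nearest to ACAN probe 1 was BMP7 at 0.05, and KITLG, the ligand gene of the receptor KIT, was among the nearest at 0.22. Nearest to SOX9 were the adenosine receptor gene ADORA1 at 0.02, DCN at 0.03 and IFNG at 0.06. Nearest to COL9A2 were CCL27, KLK2 and GPX3 at 0.06, 0.07 and 0.10, and like COL9A2 these were closest to 0 on replicate 2 with grade 1 in Cy5. Nearest to ALPL were the inflammation genes IL6, IL18BP and S100A8 at 0.10, 0.12 and 0.15.

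Marker genes of other cell types moved in the same samples, and their part in these results was not tested. Among the 925 named genes 24.1% were called higher and 46.1% lower. Beside the lower ALPL, all 6 measured genes of 14 on a neutrophil list were called lower, and their summed intensity was 19107 to 21479 in grade 3 and 98109 to 106279 in grade 1. CXCL8 had the largest change among them (log2 -4.95 ± 0.06), and S100A8 had -1.56 ± 0.05. All 3 measured of 12 macrophage genes were lower, with sums of 12911 to 14417 and 25638 to 29270, led by CD163 (-1.14) and CTSS (-0.93). Of 12 liver and kidney genes 2 were measured, and SERPINA1 was lower (-1.48). On the fibroblast and pericyte list 5 of 6 measured genes were lower. COL1A1, COL1A2 and DCN are among these 5 and were already counted on the lists above. The sums of this list were 353489 to 458082 in grade 3 and 553958 to 640134 in grade 1. Of 11 endothelial genes 5 were measured, 4 lower and 1 higher, with ANGPT2 at -0.91 and VWF at -0.30. Of 8 adipocyte genes 4 were measured and 3 were lower, with ADIPOQ at -1.42, and CD36 had 0.08. These counts depend on the scaling. With spike-in scaling the fibroblast and pericyte list had 2 higher and 1 lower, the endothelial list 2 and 1, the adipocyte list 3 and 1, the liver and kidney list 1 and 1, the neutrophil list 1 and 4 and the macrophage list 0 and 2. With median centring the adipocyte list had 1 higher and 1 lower.

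Beside the higher COL2A1 and ACAN probe 1, the 3 measured of 15 myoepithelial genes were called higher. Their sums of 22758 to 29341 in grade 3 and 20439 to 23202 in grade 1 overlapped. None of the 3 was called with local backgrounds as measured. SNAI2 had 0.35 and CAV1 0.25, with adjusted p = 0.147 and 0.0507 in that setting, and CAV1 was not called without a dye term (0.0868). Of 19 skeletal muscle genes 7 were measured, 6 higher and 1 lower by their brightest probes. MYH2 was higher by 4.55 and CA3 by 2.11, and the list's sums were 19809 to 23537 against 3520 to 4371. All 5 measured of 11 keratinocyte genes were higher, SPINK5 by 1.39 and KRT1 by 0.85. Both measured milk protein genes of 7 were higher, with sums of 357776 to 468115 in grade 3 and 37632 to 94279 in grade 1. Of 17 luminal genes 5 were measured, 2 higher, 1 lower and 2 not called, with TFF3 at 1.86 and CLDN3 at 0.11 (adjusted p = 0.0818). The gene called lower was PGR, the progesterone receptor gene, at -0.57, and ERBB2, the other gene not called, had -0.03; both are named here after their values were seen. With spike-in scaling 4 luminal genes were higher and none lower. No measured gene of any cell type list was below background on all arrays of a grade. Measured genes had already passed the filter for signal well above background in 1 grade or both. That count was thus partly set in advance and cannot check the mammary label. The keratin genes on the luminal and myoepithelial lists were not measured.

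**Figure D5:**
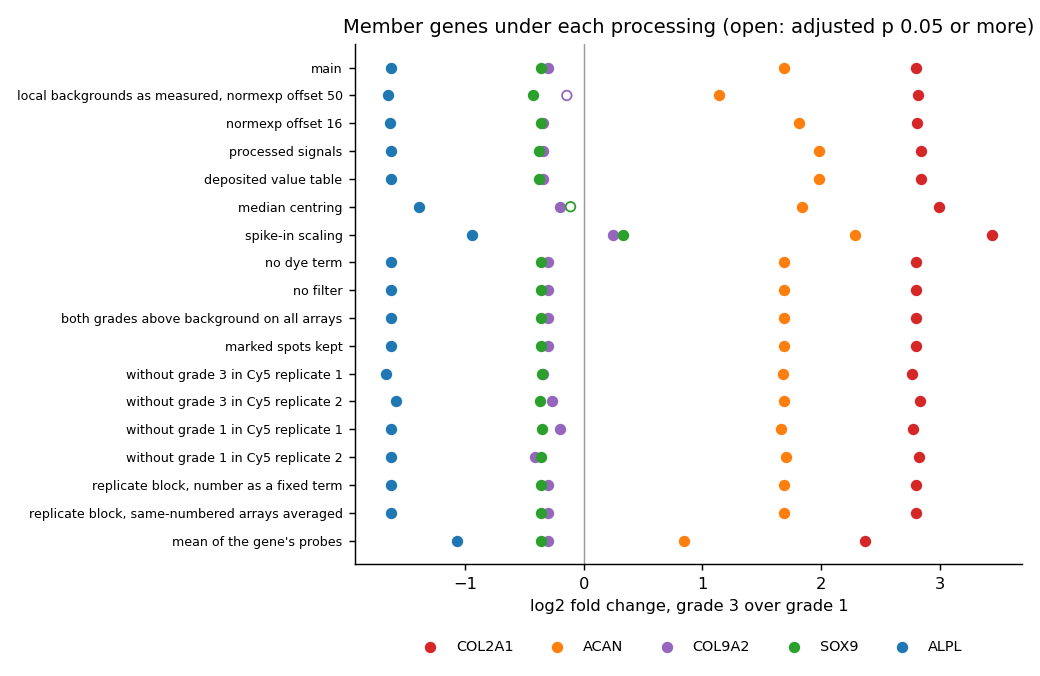
Log2 fold change of grade 3 over grade 1 (horizontal axis) of the 5 member genes, each by its first probe, under each processing (vertical axis). Points are filled for an adjusted p under 0.05 and open otherwise. COL2A1 and ACAN stay above 0 and ALPL below 0 in all 18 settings drawn, while SOX9 and COL9A2 turn to 0.33 and 0.25 with spike-in scaling.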

How the data were processed

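RNA of both grades was measured on 4 two-colour Agilent arrays, scanned spots having been quantified by Feature Extraction 10.7.3.1 according to the submitters' processing notes. The deposited median signals, background signals and processed signals of each spot are intensity values, per the file headers. The LogRatio column deposited by the authors is the log10 of Cy5 over Cy3. A value table, also deposited, carries those log10 ratios turned to grade 3 over grade 1.

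In R 4.3.3 with limma 3.58.1, a local background with an outlier mark was set to its array's median in that channel. Signals were then corrected by normexp with an offset of 50 and normalized by loess. Spots with an outlier mark (11 to 39 per array) were left out, and spots of a probe were averaged. A probe was tested where all 4 arrays had it well above background in 1 grade or both (35411 probes). The two-sided test came from a fit of grade and dye, with 2 residual degrees of freedom and 7.50 from the prior, adjusted by Benjamini-Hochberg. It was checked on simulated data. Levels are log2 intensities after Aquantile. The median signal lay between 215 and 402 units per array and channel on backgrounds of 28 to 41.

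Probes were named by RefSeq accession in a table of assembly UU_Cfam_GSD_1.0, which named 1648 of 43603 probes. No coordinates were used. The members, lists, background step and alternatives were chosen with earlier results of these data known. Named genes are the members, every measured gene of the 6 cartilage, bone and collagen lists, the 3 genes nearest each member (1 of them is not reported here), and from other lists the brightest gene and that with the smallest p, fewer than the rule allowed. Beyond choosing the brightest probe of a gene and summing intensities over a list, intensities of different probes were not compared. Such sums weigh the brightest probes most. Lists were not tested.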

Additional observations from a re-analysis of the deposited data

Results flagged for a closer look

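Dixon's test for a single distant array among the 4 was applied to 61 results, among them the 11 member probes. None of the member probes passed its 95% critical value. The gene TFF3, encoding a secreted trefoil peptide of epithelia, did (gap over range 0.89), with 1.45 in the second replicate of the grade 3 Cy5 arrays and 1.97, 1.97 and 2.03 elsewhere, as log2 ratios. Chance marks about 1 in 20 such groups.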

How the results depend on the processing

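By their first probes COL2A1, ACAN and ALPL kept their direction and their call under all alternatives run. Dimmer probes of COL2A1 and ALPL lost their call in some settings, and the second ACAN probe was not called at the main normalization. With local backgrounds as measured, 6746 probes (2328 higher, 4418 lower) rather than 21829 were called, the share of higher calls was 34.5% against 50.5%, 6 rather than 10 member probes were called, COL9A2 was not called (-0.14), and ACAN was 2.20-fold higher. Median centring gave 63.9% higher calls and ended the call of SOX9 (-0.11). Spike-in scaling gave 96.0% higher calls and shifted the all-probe median to 0.53 from 0.0045, so changes are relative to the other probes. It turned COL9A2 to 0.25, SOX9 to 0.33, BGN to 0.34, DCN to 0.32, CHI3L1 to 0.14, MSX2 to 0.12, COL1A2 to 0.11, ITGB3 to 0.12, CTSK to 0.21, TIMP2 to 0.51, COL4A4 to 0.25, COL7A1 to 0.40, COL4A5 to 0.22, COL6A3 to 0.23, CCL27 to 0.35, KLK2 to 0.15, GPX3 to 0.31, ADORA1 to 0.34 and VWF to 0.37. Median centring turned TIMP2 to 0.060, and backgrounds as measured turned CD36 to -0.013. Leaving out each array in turn gave COL2A1 2.76 to 2.83, ACAN 1.66 to 1.70, ALPL -1.67 to -1.58, SOX9 -0.37 to -0.35 and COL9A2 -0.41 to -0.20, and 18099 to 21769 called probes. The causes were not tested.

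Same-numbered arrays of the dye orientations did not deviate together (r = -0.09 over 35376 probes). This cannot decide whether they shared an RNA extract, because array noise can hide a shared extract. With the replicate number as a block 21562 probes were called, and 22899 with same-numbered arrays averaged, 10 member probes in both. Among named genes the block ended only the call of COL4A4 (-0.14, adjusted p = 0.0508, number as a block).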
